A study of Mus musculus with 8 samples.

Results

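The genes described here encode the proteins of the cytosolic ribosome, measured by RNA-seq in mouse lower first molars at E18.5. They were taken by symbol: every protein-coding gene named Rpl or Rps with a number and at most the letter a or x, plus Rplp0, Rplp1, Rplp2 and Rpsa, with pseudogenes left out. This gave 76 genes, 46 of the large and 30 of the small subunit, among the 43629 genes in the count tables. The mutant group held 4 K14Cre;Jagged1fl/fl embryos (K14J26, K14J28, K14J29 and K14J30). The control group held 4 littermates (J3, J5, J6 and J7), labelled as controls and taken here as Jagged1fl/fl, the same floxed allele without Cre. The study's methods describe them as WT littermates. They are called WT here, the name the study uses. K14Cre is a transgene active in epithelium, so the dental mesenchyme of a mutant molar keeps its Jagged1, and the right and left molars of an embryo were pooled into 1 library.

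Most ribosomal proteins are present in a single copy per ribosome (the stalk proteins encoded by Rplp1 and Rplp2 in more), and cells make these proteins in matched amounts. Their mRNAs are short, abundant and begin with a run of pyrimidines, the TOP (terminal oligopyrimidine) tract, through which mTORC1 signaling and the RNA-binding protein LARP1 adjust their translation and stability. MYC proteins raise their transcription, and growing or dividing cells need more of them. In a tooth germ, dividing precursors give way to ameloblasts, which secrete enamel matrix, and odontoblasts, which secrete dentin.

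The starts of these genes show what they share beyond their names. RefSeq promoter sequences on GRCm38.p6, from 250 bases before to 50 bases after the annotated start, were matched for 56 of the 76 genes. In 26 of these 56 genes (46.4%), a C within 5 bases of the start opened a run of at least 5 pyrimidines on the strand of the gene, against 18.3% of the 27025 promoters in the table. Runs of at least 8 were found in 33.9% of the ribosomal protein genes and 4.37% of all promoters. Only the annotated start taken for each gene was searched, so a tract at another start, or farther from this start, would be missed. Starts of 5 genes are printed to show genes with and without the run there. Each goes from 15 bases before the annotated start to 14 bases after it, 5′ to 3′, with the pyrimidine run in capitals. Rpl15 (chr14:18270972-18271001, minus strand), Rpl28 (chr7:4792950-4792979, plus strand), Rps6 (chr4:86857353-86857382, minus strand) and Rpl38 (chr11:114668565-114668594, plus strand) hold the run, and Rplp0 (chr5:115559452-115559481, plus strand) does not in this window.
Rpl15: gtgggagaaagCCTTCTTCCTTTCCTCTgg
Rpl28: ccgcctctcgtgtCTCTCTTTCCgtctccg
Rps6: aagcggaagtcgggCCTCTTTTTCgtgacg
Rpl38: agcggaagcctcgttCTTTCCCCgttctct
Rplp0: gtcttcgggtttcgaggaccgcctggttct

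Short motifs were searched on both strands of the same promoters. CCGGAAG, the core bound by ETS factors, was in 23 of the 56 ribosomal protein promoters (41.1%) and in 9.08% of all promoters. TCTCGCGAGA, the palindrome of 10 bases held by more of these promoters than any other and picked for that, was in 5 of 56 (8.93%) and in 0.47% of all promoters, and TATAAA was in 6 of 56 (10.7%) and in 14.1% of all promoters. None of these motifs contains another. Windows around the motif are printed for a pair of genes with CCGGAAG, Rpl6 (chr5:121204501-121204530, plus strand) and Rpl11 (chr4:136053370-136053399, minus strand), and for a pair with TCTCGCGAGA, Rps19 (chr7:24884574-24884603, plus strand) and Rps28 (chr17:33824544-33824573, minus strand), with the motif in capitals.
Rpl6: attgcttatagaCCGGAAGccgctgcctta
Rpl11: aaggccacggggCCGGAAGtctccctctct
Rps19: cactccgaaaTCTCGCGAGActcgacgccc
Rps28: ccgcgtgcggTCTCGCGAGAgcgaaagtga

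The libraries held 17327224 to 29792467 counts, and no ribosomal protein gene had fewer than 560 counts in any embryo. Levels below are in CPM, counts per 1000000, after scaling by TMM, a factor computed per library from genes of middling change. Differences are log2 fold changes of mutant over WT. They were fitted and tested with the quasi-likelihood method of edgeR, and p values were adjusted after Benjamini and Hochberg over all 17129 genes tested. Jag1, the targeted gene, stood between 95.2 and 104 CPM in the WT embryos and between 34.0 and 57.1 CPM in the mutants, a log2 fold change of -1.19 (edgeR adjusted p = 0.00517).

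Most ribosomal protein genes stood slightly below WT in the mutant molars. Of the 76 genes, 74 had a log2 fold change below 0, against 49.3% of all genes tested. Their median was -0.17, an 11% lower level, with quartiles of -0.20 and -0.11, while the median of all genes was 0.0058. The differences were small in size but mostly larger than their errors, whose median was 0.071 (SE). In the tests, 9 genes were lower at an adjusted p under 0.05 (11.8%), where 6.61% of all genes were, and 1 was higher, where 9.52% of all genes were. At an unadjusted p under 0.05, 44 were lower (57.9%) and 1 was higher (1.32%), beside 15.7% and 19.1% of all genes, and 21 (27.6%) had an adjusted p between 0.05 and 0.1, beside 11.6% of all genes. The study states a p and a fold change threshold for its gene lists without giving the scale. Read here as p no larger than 0.05 before adjustment and a log2 change of 0.5 or more in size, they left none called by edgeR, against 8.33% of all genes upwards and 5.85% downwards. DESeq2 called 1 higher (Rpl34; 8.1% of all genes) and limma-voom 2 (Rpl34 and Rplp0; 7.97% of all genes). In 21 of the 76 genes (27.6%) every mutant embryo was below every WT embryo, against 11.6% of all genes, and in none was every mutant above every WT, against 12.6%. In pooled whole molars, fewer cells of a type and less RNA per cell cannot be told apart.

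**Figure D1:**
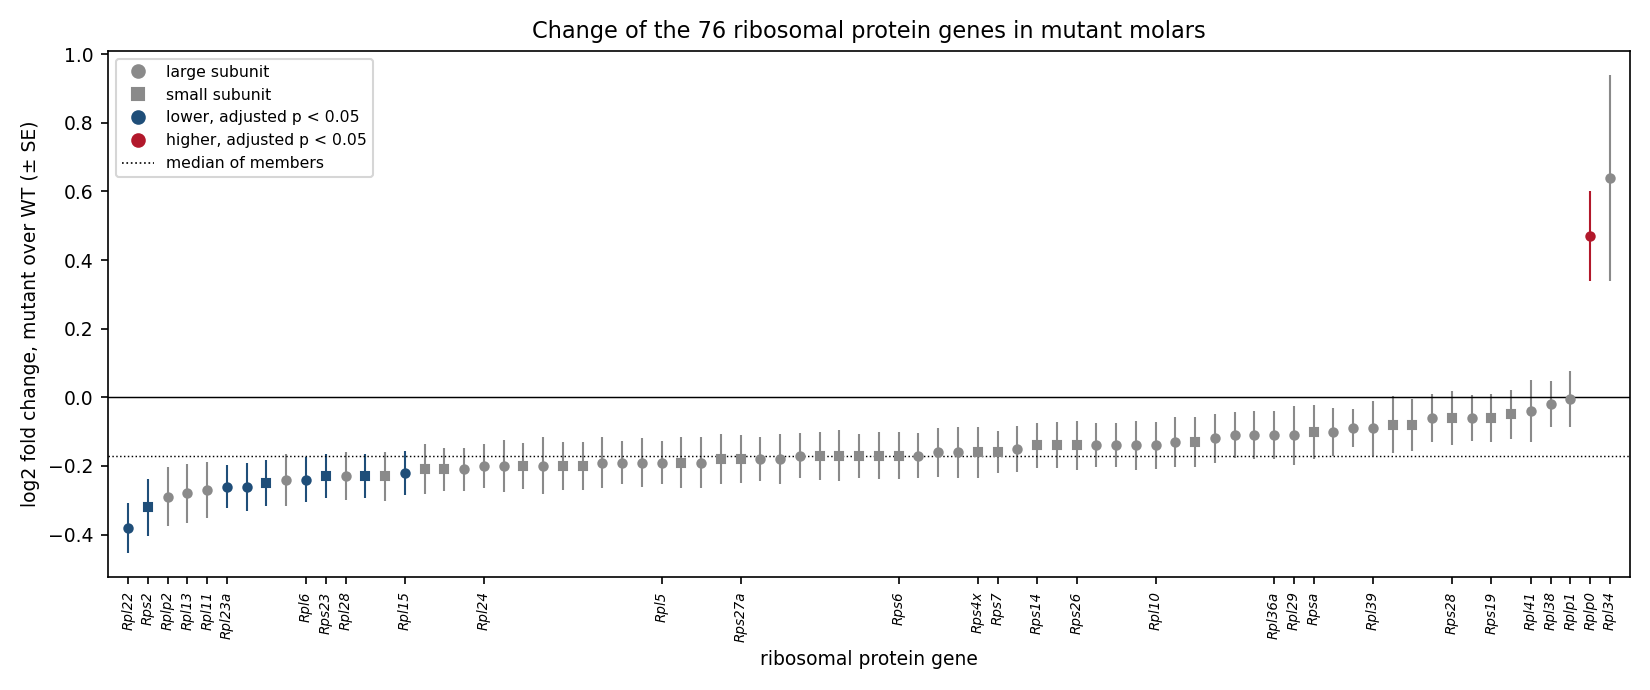
Log2 fold change of mutant over WT (y axis, ± SE, 4 embryos per group) for each of the 76 ribosomal protein genes (x axis, in order, with the names of genes described in the text), with circles for the large and squares for the small subunit and color for an adjusted p under 0.05. The genes form a shallow slope from -0.38 to -0.0046, with Rplp0 at 0.47 and Rpl34 at 0.64 apart from it.

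By subunit, the median was -0.17 for the 46 large subunit genes, of which 5 were called lower and 1 higher, and -0.17 for the 30 small subunit genes, of which 4 were called lower, where 6.61% of all genes were lower and 9.52% higher. The difference between the subunits was not tested. All 30 small subunit genes and 44 of the 46 large subunit genes were below 0. Apart from Rplp0 and Rpl34, the changes of the other 74 genes ran from a 23% lower level to a log2 fold change of -0.0046.

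The genes moved together from embryo to embryo within each group as well. The median ribosomal protein gene stood at 723, 673, 662 and 624 CPM in J3, J5, J6 and J7, and at 582, 567, 589 and 634 CPM in K14J26, K14J28, K14J29 and K14J30. K14J30 therefore lay above J7, and the medians of the groups overlapped there. Within WT, J3 was the highest embryo for 66 of the 76 genes and J7 the lowest for 71. Within the mutants, K14J30 was the highest for 66, and K14J28 was the lowest for 51 and K14J26 for 25. Over all 8 embryos, J3 was highest for 65 genes and K14J28 lowest for 49.

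The replicates were tight. The median SD of log2 CPM within a group was 0.085 in WT and 0.087 in the mutants for the ribosomal protein genes, beside 0.13 and 0.21 for all genes tested. The comparison was not matched for level: in WT the median ribosomal protein gene stood at 670 CPM and the median of all genes at 19.6 CPM. The genes kept less even proportions in K14J26 than elsewhere: the interquartile range of their log2 distance from the WT mean was 0.14 in that embryo and between 0.038 and 0.11 in the others.

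**Figure D2:**
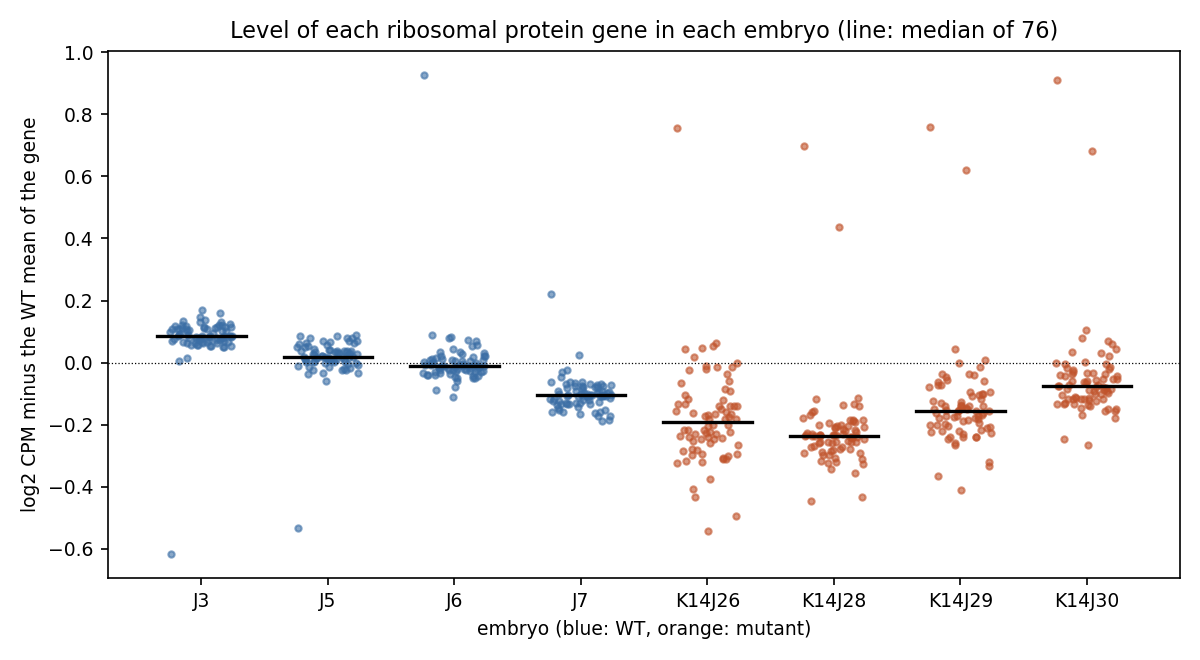
Log2 CPM of each of the 76 genes in each embryo minus the mean of that gene over the 4 WT embryos (y axis), by embryo (x axis), with a line at the median. The cloud shifts as a whole between embryos, from a median of 0.086 in J3 to -0.23 in K14J28, and the isolated points above the mutants' clouds are Rplp0 and Rpl34.

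The share of all counts that fell on these genes was lower in most mutants. It was 5.94%, 5.62%, 5.52% and 5.17% in J3, J5, J6 and J7, and 3.95%, 4.79%, 4.73% and 5.26% in K14J26, K14J28, K14J29 and K14J30. The means were 5.56% ± 0.315 in WT and 4.68% ± 0.543 in the mutants (SD, n = 4 each), and K14J30 lay above J7. K14J26 had the lowest share, whereas K14J28 had the lowest median. The share depends on what else a library holds: without the 20 most abundant other genes, K14J26 stood at 4.77% and the mutants spanned 4.77% to 5.72%, beside 5.54% to 6.34% in WT.

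Rpl22 had the lowest fold change of all 76 genes. It encodes a large subunit protein on the outer face of the ribosome that cells can do without, and lies at chr4:152325742-152334071 on GRCm38. It measured 441, 433, 408 and 403 CPM in WT and 289, 340, 317 and 350 CPM in the mutants. No mutant reached the lowest WT embryo, and the log2 fold change was -0.38 ± 0.073 (SE; edgeR adjusted p = 0.0157). Its paralog Rpl22l1, whose mRNA is known to be held down by RPL22 protein, stood at 152 ± 12.9 CPM in WT and 146 ± 7.5 CPM in the mutants (SD, n = 4), with a log2 fold change of -0.057 (edgeR adjusted p = 0.61).

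Rps2, a small subunit protein near the mRNA entry channel, measured 1053, 967, 948 and 905 CPM in WT and 686, 780, 767 and 868 CPM in the mutants. The groups did not overlap, and the log2 fold change was -0.32 ± 0.083 (SE; edgeR adjusted p = 0.0334). K14J26 had the lowest level of both Rpl22 and Rps2. Rpl23a, a protein at the exit of the peptide tunnel, measured 517, 522, 485 and 466 CPM in WT and 405, 404, 415 and 442 CPM in the mutants (log2 fold change -0.26, edgeR adjusted p = 0.0277). Its mutants lay close together, all below J7.

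Rpl6 and Rpl15 of the large subunit and Rps23 of the small subunit were also called lower. Their log2 fold changes were -0.24, -0.22 and -0.23 (edgeR adjusted p = 0.0391, 0.0466 and 0.0381). Rpl6 measured 824, 779, 786 and 751 CPM in WT and 627, 642, 682 and 716 CPM in the mutants. Rps23, a protein of the decoding center, fell from 570 ± 24.0 to 485 ± 28.7 CPM, and Rpl15, which sits deep in the large subunit, from 480 ± 25.8 to 412 ± 21.4 CPM (SD, n = 4). In each of the 9 genes called lower, every mutant was below every WT embryo.

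Of the 5 genes with the lowest fold changes, Rplp2, Rpl13 and Rpl11 missed the threshold. Rplp2 had a log2 fold change of -0.29 (edgeR adjusted p = 0.0511) and measured 282 to 332 CPM in WT and 229 to 290 CPM in the mutants, with K14J26 among the WT values. Rpl13 had -0.28 (edgeR adjusted p = 0.0539), and its highest mutant, K14J30 at 552 CPM, was level with J7 at 550 CPM. Rpl11 had -0.27 (edgeR adjusted p = 0.0538), with 605 to 714 CPM in WT and 491 to 614 CPM in the mutants.

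Rpl11 and Rpl5 form a particle with the ribosome's smallest RNA and, when free of ribosomes, bind MDM2, the ubiquitin ligase of p53. Rpl5 stood at 844 CPM in WT and 740 CPM in the mutants on average, a log2 fold change of -0.19 (edgeR adjusted p = 0.0709). Among Mdm2, Trp53 and 9 p53 targets, 5 of 11 were called higher, namely Cdkn1a, Ccng1, Sesn2, Zmat3 and Eda2r, none was lower, where 9.52% of all genes were higher and 6.61% lower, and the median log2 fold change was 0.26. Cdkn1a, a cell cycle inhibitor, had a log2 fold change of 1.36 (edgeR adjusted p = 0.0247), and Ccng1 had 0.68 (edgeR adjusted p = 0.00485). Mdm2 itself had 0.084 (edgeR adjusted p = 0.613), and Trp53 had -0.18 (edgeR adjusted p = 0.376). Whether these are tied to the ribosomal protein genes was not tested.

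The P stalk, on which elongation factors dock, is built of Rplp0, Rplp1 and Rplp2, and its 3 genes gave 3 different results. Rplp2 was among the lowest (above). Rplp1 measured 948, 873, 945 and 818 CPM in WT and 924, 781, 923 and 944 CPM in the mutants, and its log2 fold change of -0.0046 was the closest to 0 of all 76 genes (SE 0.082, edgeR adjusted p = 0.974). Rplp0 was the only ribosomal protein gene called higher.

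Rplp0 is the gene known as 36B4, the reference of the study's RT-PCR. It measured 996, 957, 973 and 882 CPM in J3, J5, J6 and J7, and 987, 1287, 1462 and 1526 CPM in K14J26, K14J28, K14J29 and K14J30. K14J26 lay within WT, while the other 3 mutants lay above every WT embryo. The log2 fold change was 0.47 ± 0.13 (SE; edgeR adjusted p = 0.0376), and the means were 952 ± 49.5 CPM in WT and 1315 ± 241 CPM in the mutants (SD, n = 4). The call was lost without K14J29 (log2 fold change 0.41, adjusted p = 0.104), without K14J30 (0.39, adjusted p = 0.075) and without any single WT embryo (0.43 to 0.49), so that the size of the change stayed near that with all embryos. Without K14J26 it was 0.58.

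Intronless copies of the Rplp0 mRNA had lower levels in the same 3 embryos, though neither passed the test between the groups. Gm8730 (chr8:102864845-102865798) and Gm9625 (chr13:67810246-67811200) are annotated as processed pseudogenes, and over their length they match the Rplp0 mRNA at 98.7% and 97.5% of aligned bases, with 12 and 24 differences. Gm8730 measured 372, 355, 373 and 339 CPM in WT and 354 CPM in K14J26, but 154, 184 and 190 CPM in K14J28, K14J29 and K14J30. Gm9625 measured 112 to 123 CPM in WT and 116 CPM in K14J26, but 48.1, 60.3 and 60.1 CPM in the other 3 mutants. Their log2 fold changes were -0.71 and -0.74 (edgeR adjusted p = 0.0612 and 0.059). Of the counts on the 3 genes, Rplp0 held 66.2% to 66.9% in WT and 67.7% in K14J26, and 86.4%, 85.7% and 85.9% in K14J28, K14J29 and K14J30. Their sum was 1492, 1431, 1468 and 1333 CPM in WT and 1457, 1489, 1706 and 1776 CPM in the mutants. With the counts of pseudogenes that share at least 10% of its 50-base windows added to Rplp0, an alternative chosen after seeing the data, its log2 fold change was 0.17 (edgeR adjusted p = 0.183, where the range over all alternatives was 0.00204 to 0.183).

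How reads were divided between Rplp0 and these copies was not tested. A stretch in which the copies differ from Rplp0 is printed. It is 80 bases of coding sequence in exon 3 of 7 of Rplp0, at chr5:115560745-115560824 (GRCm38, plus strand), with its counterparts in Gm8730 at chr8:102865661-102865740 (minus strand) and Gm9625 at chr13:67810304-67810383 (plus strand). Capitals mark bases that differ between Rplp0 and either copy in the first line, and from Rplp0 in the others.
Rplp0: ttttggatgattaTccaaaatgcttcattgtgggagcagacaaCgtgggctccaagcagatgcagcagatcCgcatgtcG
Gm8730: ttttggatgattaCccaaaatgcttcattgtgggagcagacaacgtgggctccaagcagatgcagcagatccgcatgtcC
Gm9625: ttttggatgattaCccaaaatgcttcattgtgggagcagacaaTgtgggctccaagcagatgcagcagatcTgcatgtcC

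**Figure D3:**
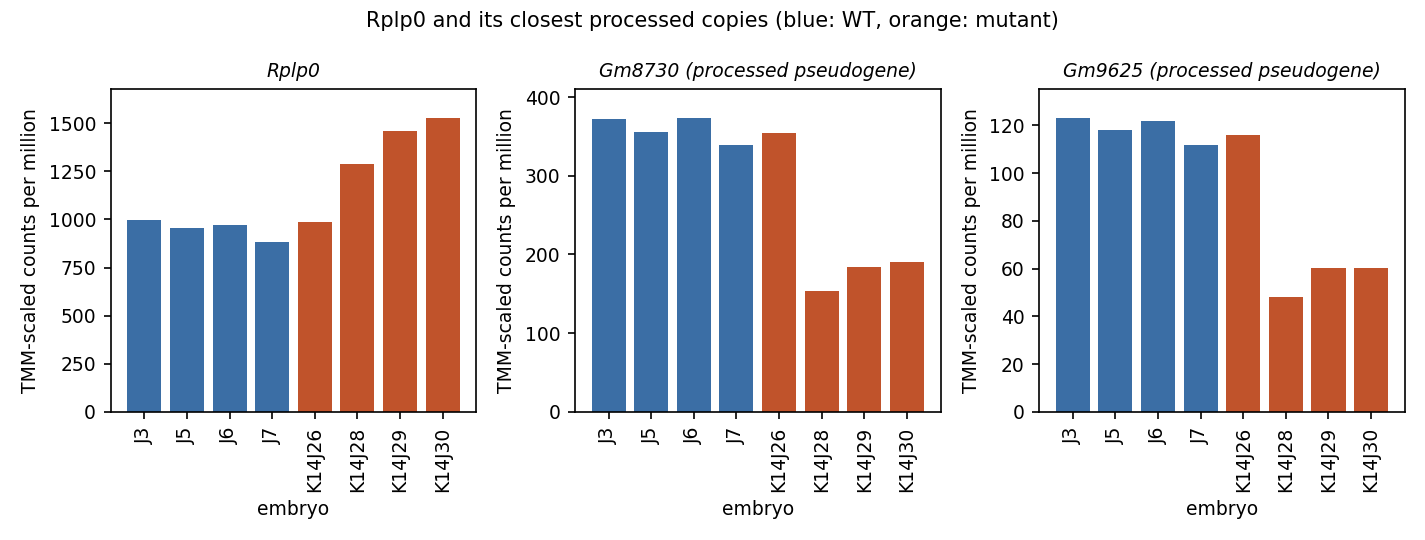
CPM (y axes, from 0) of Rplp0 and of the processed pseudogenes Gm8730 and Gm9625 in each embryo (x axes), WT in blue and mutants in orange. K14J28, K14J29 and K14J30 are high for Rplp0 and low for both copies, and K14J26 stands with the 4 WT embryos in all 3 panels.

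Rpl34, a large subunit protein gene at chr3:130726831-130730398, had the highest fold change but did not pass the test. It measured 116, 123, 338 and 207 CPM in J3, J5, J6 and J7 and 300, 288, 301 and 334 CPM in the mutants. The mutants lay close together (306 ± 19.7 CPM), whereas the WT embryos spread from the lowest to the highest value of all 8 (196 ± 103 CPM; SD, n = 4). The log2 fold change was 0.64 ± 0.30 (SE; edgeR adjusted p = 0.161), and without J6 it was 1.04 (adjusted p = 0.0288).

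The closest copy of Rpl34, the processed pseudogene Rpl34-ps1 (chr6:71124610-71124963), ran in the reverse order within WT at a far lower level. It measured 3.77, 2.85, 0.259 and 1.49 CPM in J3, J5, J6 and J7, and 0.0333 to 0.192 CPM in the mutants, where 3 counts correspond to 0.0998 to 0.144 CPM, so that the mutants were near the floor of detection and no fold change is given. In WT, the 2 embryos with the least Rpl34 had the most Rpl34-ps1, and J6, with the most Rpl34, had the least. The copy matches 352 of 354 aligned bases. An 80-base stretch of exon 3 of 5 of Rpl34 (chr3:130729071-130729150, minus strand) is printed with its counterpart in Rpl34-ps1 (chr6:71124675-71124754, plus strand), with the differing base in capitals.
Rpl34: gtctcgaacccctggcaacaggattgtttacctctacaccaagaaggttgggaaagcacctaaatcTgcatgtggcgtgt
Rpl34-ps1: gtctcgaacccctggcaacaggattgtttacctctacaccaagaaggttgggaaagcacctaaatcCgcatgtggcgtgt

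**Figure D4:**
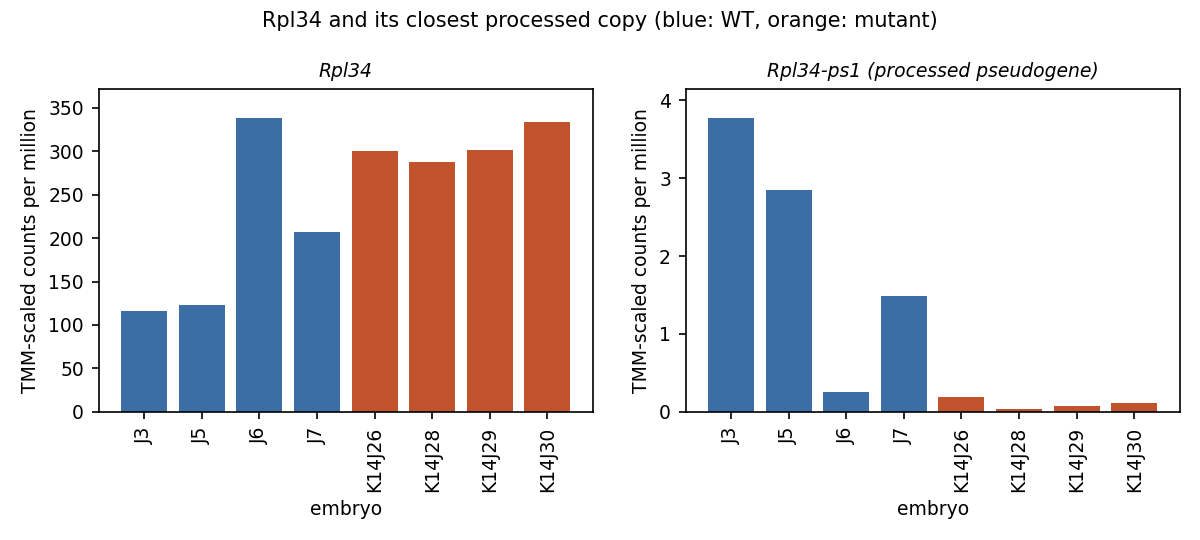
CPM (y axes, from 0, on scales of their own) of Rpl34 and of the processed pseudogene Rpl34-ps1 in each embryo (x axes), WT in blue and mutants in orange. Rpl34 ranges from 116 to 338 CPM within WT alone, and Rpl34-ps1 is highest in J3 and J5, where Rpl34 is lowest.

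Such copies are common for this family. Of the 76 genes, 75 shared at least 1 window of 50 bases of their mRNA with another annotated transcript, 46 shared over 50% of their windows, and the median was 56%. How reads with several matches were counted is not given in the sources used here, so levels of single genes are uncertain by an amount that was not measured. Adding the counts of similar pseudogenes, which 65 of the 76 genes have, left the count called lower at 9, all of them the same genes.

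Genes at the other end of the order had fold changes near 0. Besides Rplp1, these were Rpl38, a protein known for its part in the translation of Hox mRNAs, and Rpl41, the shortest protein of the ribosome. Rpl38 measured 206, 194, 190 and 178 CPM in WT and 190, 174, 193 and 200 CPM in the mutants, so that the groups overlapped throughout (log2 fold change -0.02, edgeR adjusted p = 0.869). Rpl41 had -0.04 (edgeR adjusted p = 0.816). For Rplp1, Rpl38, Rpl41 and Rps19 the sign of the change turned under some alternatives.

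The genes named in Diamond-Blackfan anemia, an inherited failure of red cell production, include Rps19, Rps26, Rps7, Rpl5 and Rpl11. Rps19 stood at 622 CPM in WT and 597 CPM in the mutants (log2 fold change -0.06, edgeR adjusted p = 0.584). Rps26 had -0.14 (edgeR adjusted p = 0.194), Rps7 had -0.16 (edgeR adjusted p = 0.0968), and neither passed the test. Rps14, whose loss marks a form of myelodysplasia, had -0.14 (edgeR adjusted p = 0.156).

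Rps6 is the ribosomal protein phosphorylated by the S6 kinases downstream of mTORC1. It measured 422, 425, 390 and 368 CPM in WT and 340, 341, 368 and 380 CPM in the mutants, where K14J30 exceeded J7 (log2 fold change -0.17, edgeR adjusted p = 0.121). Rps27a, made as a fusion with ubiquitin, had -0.18 (edgeR adjusted p = 0.105), and Rpsa, also known as the laminin receptor, had -0.10 (edgeR adjusted p = 0.375). Rpl24, which bridges the subunits, had -0.20 (edgeR adjusted p = 0.059) with all 4 mutants (260 to 283 CPM) below the 4 WT embryos (289 to 337 CPM). The transcript Gm28037 overlaps Rpl24 on the same strand and had nearly the same CPM in every embryo, so that reads on the 2 cannot be told apart.

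The 4 X-linked genes were Rpl10, Rpl36a, Rpl39 and Rps4x. Rpl10, which joins the large subunit last, had a log2 fold change of -0.14 (edgeR adjusted p = 0.196), with mutants at 795 to 912 CPM and WT embryos at 927 to 1036 CPM. Rpl36a had -0.11, Rpl39 had -0.09 and Rps4x had -0.16 (edgeR adjusted p = 0.302, 0.437 and 0.151). Xist, which is transcribed from the inactive X chromosome, was at 1930 CPM in K14J28 and 1468 CPM in K14J29, whereas none of the other embryos exceeded 1.09 CPM, and the labels give no sex. With Xist as a covariate, 1 gene, Rpl22, was called lower and none higher, where 4.28% of all genes were lower. The median of the 76 genes was then -0.14, with 67 below 0 and 12 lower at an unadjusted p under 0.05.

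Levels between genes were compared per kb of merged exons, which understates genes with annotated introns retained. On that scale Rplp1 was the most abundant in WT, at 1795 CPM per kb, and Rpl29 the least, at 28, a 64.1-fold range around a median of 341. The median in the mutants was 312 CPM per kb. Rpl29, which is known for a very large number of pseudogenes, shared 66.6% of its windows with 84 other genes.

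Levels were then set against the median ribosomal protein gene of the same embryo, which removes the scale of the library. On this measure 60 of the 76 genes differed between the groups by less than 0.1 on the log2 scale. The differences were -0.20 for Rpl22, -0.15 for Rps2 and 0.62 for Rplp0, and in each of these the groups did not overlap. Rpl34 had 0.96, and its groups overlapped. Other genes that stood relatively high in the mutants were Rplp1 (0.17) and Rpl41 (0.14), whose groups overlapped, and Rpl38 (0.16), whose groups did not. By this measure, 6 genes had every mutant below every WT embryo and 6 had every mutant above. The same count was not made over all genes. Setting genes against the family's own median places some on each side, so the split is partly built in.

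Ribosome genes that the symbols did not match mostly had the sign of the family. Of 12 such genes and paralogs, 10 were tested and 8 were below 0, with a median log2 fold change of -0.13. None was called by edgeR, where 6.61% of all genes were lower and 9.52% higher. At an unadjusted p under 0.05, 2 were lower, beside 15.7% of all genes. Rps3a1, a small subunit protein, had -0.16 (edgeR adjusted p = 0.157), Rack1, a signaling scaffold on the small subunit, had -0.12 (edgeR adjusted p = 0.239), and Fau, which encodes a ribosomal protein fused to a ubiquitin-like domain, had -0.14.

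Other mRNAs known to carry a TOP tract also had fold changes below 0. All 18 listed translation factors and other proteins of this class were below 0, 7 were called lower and none higher, where 6.61% of all genes were lower and 9.52% higher, and the median was -0.17. Among the ribosomal protein genes themselves, the 26 with the pyrimidine run at the annotated start had a median of -0.17 and the 30 without it -0.16. The 30 may still carry a tract, because the starts used in these molars were not measured. These medians therefore do not compare mRNAs with and without a tract. The 7 listed factors called lower were Eif3e, Eif4b, Pabpc1, Naca, Btf3, Hnrnpa1 and Nap1l1. Btf3, a subunit of the complex that binds emerging peptides, had a log2 fold change of -0.43 (edgeR adjusted p = 0.0156), and Nap1l1, a histone chaperone, had -0.57 (edgeR adjusted p = 0.0355). Eef1a1, the factor that brings aminoacyl-tRNA to the ribosome, had -0.17 (edgeR adjusted p = 0.112), and Tpt1 had -0.031.

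Genes that build ribosomes were mostly below 0 with few calls, against 6.61% of all genes lower and 9.52% higher. Of 49 genes for RNA polymerase I, rRNA processing and assembly, 38 were below 0, and the median was -0.15. EdgeR called 2 of the 49 lower (Ubtf and Mrto4) and none higher. Before adjustment, 13 of the 49 were lower and 2 higher at an edgeR p under 0.05, beside 15.7% and 19.1% of all genes. Ubtf, which opens ribosomal DNA for RNA polymerase I, had -0.23 (edgeR adjusted p = 0.0376). The nucleolar genes Npm1, Ncl and Fbl had -0.45, -0.31 and -0.38, and none passed the test. Of 20 other initiation factors, Eif1ax and Eif4h were called lower, 12 were below 0 and the median was -0.07. Before adjustment, 6 of the 20 were lower and 1 higher at that threshold. Of 74 mitochondrial ribosomal protein genes, 73 were tested, 58 were below 0, and the median was -0.099. Mrpl3, Mrpl11, Mrpl13 and Mrpl40 were called lower, and before adjustment 18 of the 73 were lower and 1 higher at that threshold. None of the 5 snoRNA host genes tested was called by edgeR (1 lower at an unadjusted p under 0.05, median 0.063).

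**Figure D5:**
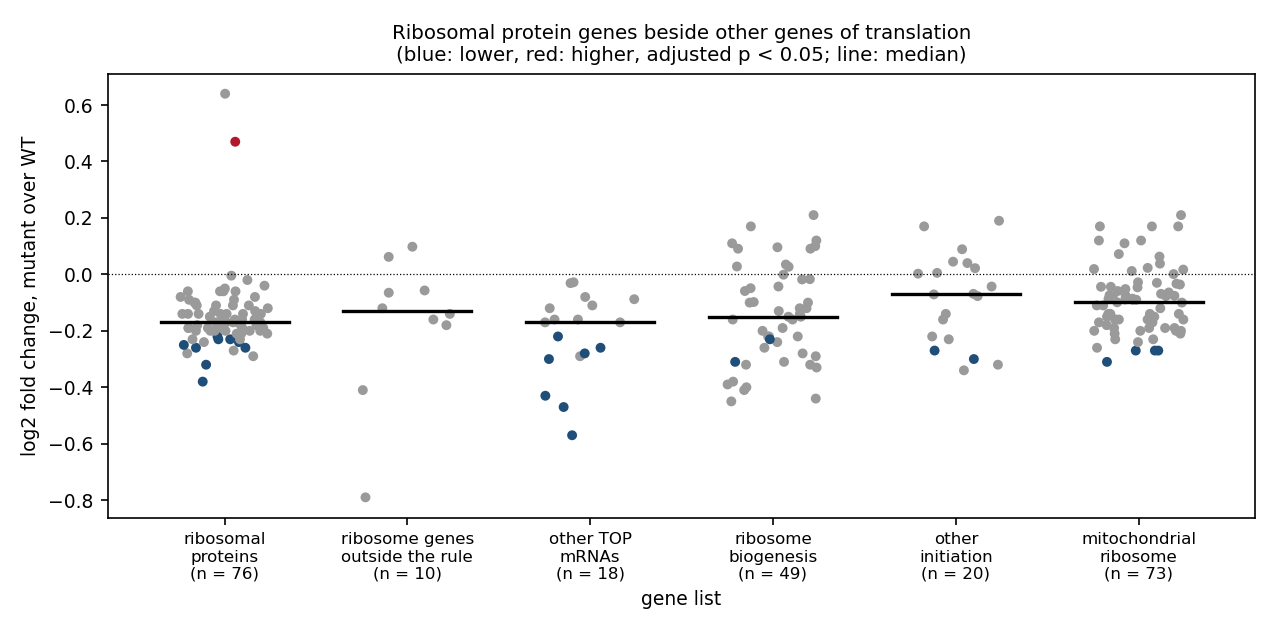
Log2 fold change of mutant over WT (y axis) for the genes of each list (x axis), with a line at the median and color for an adjusted p under 0.05. In the 6 lists drawn, the medians run from -0.17 for ribosomal protein genes and other TOP mRNAs to -0.07 for other initiation factors.

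Among 16 tested genes of the MYC and mTORC1 pathways, 3 were called lower and 4 higher, where 6.61% of all genes were lower and 9.52% higher, with a median of 0.044. Mycn measured 21.3, 22.3, 18.9 and 23.7 CPM in WT and 11.4, 11.9, 8.87 and 11.5 CPM in the mutants, a log2 fold change of -0.98 (edgeR adjusted p = 0.00517). Mycl had -0.48 (edgeR adjusted p = 0.0104), and Myc, at -0.40, did not pass (edgeR adjusted p = 0.168). Eif4ebp1, an inhibitor of cap-dependent initiation, had -0.50 (edgeR adjusted p = 0.0325). Mtor, the kinase, and Rptor, its partner in mTORC1, had 0.47 and 0.23, and Tsc1 and Tsc2, which restrain mTORC1, had 0.35 and 0.27 (edgeR adjusted p = 0.0142, 0.025, 0.0115 and 0.0494). Larp1 had -0.20 (edgeR adjusted p = 0.111).

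Markers of several cell types differed between the groups, and their calls stand against 9.52% of all genes higher and 6.61% lower. Enamel matrix genes summed to 711 to 3423 CPM in WT and 3959 to 114747 CPM in the mutants, with 5 of the 6 tested called higher, and odontoblast genes to 6328 to 11897 and 11508 to 35518 CPM, with 5 of 6 higher. K14J26 was highest on both sums, and its TMM factor was 0.843, beside 0.969 to 1.04 in the other 7 libraries. The 10 genes of cycling cells summed to 1526 to 1828 CPM in WT and to 592, 1807, 1106 and 1459 CPM in K14J26, K14J28, K14J29 and K14J30, with none called by edgeR (4 lower at an unadjusted p under 0.05) and a median of -0.50. Muscle genes summed to 6.42 to 430 CPM in WT, where J6 and J7 were high, and 6.35 to 21.4 CPM in the mutants, with 1 of 10 called lower (9 at an unadjusted p under 0.05, median -3.30). Dental epithelium genes summed to 4507 to 5191 and 5395 to 7813 CPM (1 of 6 higher), and dental mesenchyme genes to 2662 to 3242 and 2594 to 2807 CPM (1 of 6 higher, 3 lower). Endothelial and Schwann cell genes had 1 of 6 lower each, and edgeR called none of 7 red cell genes (0 at an unadjusted p under 0.05) or 8 immune genes (1 higher at an unadjusted p under 0.05). The part of these differences in the levels of ribosomal protein genes was not tested.

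The calls on single genes depended on which embryo was left out. Without J3 or without K14J29 edgeR called no ribosomal protein gene lower (21 and 28 at an unadjusted p under 0.05), and without J5, J6 or J7 only Rpl22 was. In the same fits the share of all genes called lower was 1.68% without J3, 1% without K14J29 and 1.39% to 3.24% without J5, J6 or J7, beside 6.61% with all 8 embryos. Without K14J26, K14J28 or K14J30, 9, 8 and 13 ribosomal protein genes were called lower, which held 7, 8 and 9 of the original 9, where 7.94%, 10.9% and 4.85% of all genes were lower. The median stayed between -0.21 and -0.14 whichever embryo was left out.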

How the data were processed

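RNA from the pooled lower first molars of 8 embryos was sequenced after poly-A selection. Trimmed reads (Trimmomatic) were aligned to GRCm38 by STAR, and the authors deposited, for each embryo, raw counts of reads per Ensembl gene, made with GenomicRanges per the study's methods and featureCounts per the labels (GRCm38.p3). Strand and reads with several matches are not described. Symbols and positions came from GENCODE M21. A gene was kept if 2 or more embryos of a group had 10 or more counts (17129 genes), and these were normalized and tested with edgeR 4.0.16 in R 4.3.3 (TMM, quasi-likelihood test, no covariates, adjusted over all genes kept), which was tested on simulated data. Promoters came from RefSeq (GRCm38.p6), and mRNA copies were aligned with Biopython 1.88. The alternatives were other scalings, DESeq2 1.42.0, limma 3.58.1 (voom), other count filters, a Xist covariate, added pseudogenes and leaving out each embryo.

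Genes named singly were the 5 highest and 5 lowest fold changes, genes called, a list by role, the X-linked genes and the most and least abundant. The members, lists and this rule were chosen with earlier results of these data known. The list genes, copies and starts named beside them were picked with their values in view. The values of some single genes are not reported here.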

Additional observations from a re-analysis of the deposited data

Results flagged for a closer look

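In the groups of 4 embryos, 64 sets of values (the 31 genes named by rule and the share of counts, in WT and in mutants) were examined for a single embryo far from the other 3. Rpl10 in J3 was flagged at 1036 CPM, above 927 to 938 CPM in the other WT embryos. Rpl24 in K14J30 was flagged at 283 CPM, above 260 to 264 CPM in the other mutants. Rplp1 in K14J28 was flagged at 781 CPM, below 923 to 944 CPM in the other mutants. Chance flags about 1 in 20 such sets, and 3 of 64 were flagged.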

How the results depend on the processing

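The median log2 fold change of the 76 genes was -0.27 with library size scaling alone, where the median of all genes was -0.093, and otherwise stayed between -0.21 and -0.14. Against 9 genes called lower, where 6.61% of all genes were, DESeq2 called 30 (10% of all genes), limma-voom with quality weights 28 (12.6%), upper-quartile scaling 20 (8.45%), a minimum of 100 counts in every embryo 20 (9.82%), leaving out the 20 most abundant other genes 14 (6.85%), library size scaling 6 (6.19%), no count filter 4 (3.21%) and the Xist covariate 1 (4.28%). The 9 genes were all among those called by each of these except library size scaling, which shared 4, no count filter, which shared 3, and the Xist covariate, which shared 1. Leaving out 1 embryo gave 0 to 13 genes lower, 0 to 1 higher and 0 to 1 higher by the criteria of the study as read here. Rplp0 was no longer called higher, leaving 0, with library size scaling, upper-quartile scaling, the Xist covariate or similar pseudogenes added. By the criteria of the study, 1 gene was higher with DESeq2 (Rpl34), 1 without a count filter (Rpl34) and 2 with limma-voom (Rpl34 and Rplp0). The difference in the share of counts ran from -1.07 to -0.63 percentage points with 1 embryo left out, beside -0.88 with all. The sign turned for Rplp1 (0.021 with limma-voom, 0.068 with the Xist covariate, -0.053 to 0.05 with 1 embryo left out), Rpl38 (0.0016, 0.028 and -0.059 to 0.015), Rpl41 (0.048 with the Xist covariate, -0.094 to 0.022) and Rps19 (0.025 with the Xist covariate). The causes were not tested. No paired analysis was possible because the embryos of the groups share no numbers. No ribosomal protein gene had fewer than 560 counts in an embryo, and each group held 4 embryos.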
